A study of Mus musculus with 24 samples.

Results

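Mice of the SI_EE group, read from the sample and series titles as social isolation (SI) with an enriched environment (EE), were compared with the untreated GH_Con group in medial prefrontal cortex. The comparison asks what still differed between isolated, enriched animals and the GH baseline. It used 8 of the 24 bulk RNA-seq libraries of the series, 4 per group, chosen by their sample titles. All 24 libraries carry the genotype label 5xFAD, 1 batch date and no age, strain background or time point. SI_EE carries the treatment label EE and GH_Con the label control. What GH stands for is not given in the sources used here. Nothing there says that libraries of a group came from separate mice, so every p-value reflects only variation among these libraries, and that variation may be technical. The 5xFAD line overexpresses human APP with familial Alzheimer's disease mutations from a neuronal Thy1 promoter, so amyloid arises from transgene expression in neurons, in both groups alike. The remaining libraries entered the fit to share an estimate of the spread.

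Enriched housing gives rodents space and changing objects, and social isolation withdraws contact with other animals. Both are known to alter the transcription of genes that neurons switch on with firing, such as Fos, Egr1 and Bdnf. The prefrontal cortex of 5xFAD mice also carries amyloid plaques, around which microglia and astrocytes take up reactive states. Gene lists for these programmes, for cell types of cortex and neighbouring tissue, and for energy, protein folding and lipid pathways were read in each library.

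In the 8 libraries total counts ran from 34968646 (SI_EE 1) to 38770347 (GH_Con 4). SI_EE 1 stood apart, at 137 on a first principal component (35.9% of variance) on which the other 7 libraries lay between −26.4 and −11.9. Gabra6, a GABA receptor subunit of cerebellar granule cells, was at 342 CPM (counts scaled to the library total) in SI_EE 1 and at most 0.952 in the other 7, and Pcp2, a Purkinje cell gene, at 242 and at most 0.487. Camk2a, a kinase of forebrain excitatory neurons, was at 504 CPM there and at 2217 to 2738 in the others, so the labelled tissue was not matched by this library's markers. The summed level of the 19 measured cerebellar members was 9237 CPM in SI_EE 1 and 1081 to 1555 CPM in the other 7. Striatal markers averaged 2.55 log2 CPM in SI_EE 1 and 5.27 to 5.68 in the others. Calls and lists were therefore also read without SI_EE 1, where SI_EE has n = 3. Xist, the RNA that silences an X chromosome in female cells, was read in GH_Con 1, 2 and 3 and in SI_EE 4, and Y-linked Ddx3y in the other 4, so sex was unequal between the groups. Thalamus and habenula markers averaged 2.29 and 2.50 log2 CPM in SI_EE 3 and SI_EE 4 and 0.91 to 1.56 in GH_Con, and the choroid plexus transcript Ttr was at 522 CPM in SI_EE 3 and at 3.05 to 69.2 CPM elsewhere among the 8. Long genes read lower in GH_Con 2 (Spearman's rho across genes of length with deviation from the mean −0.24) and higher in SI_EE 3 and SI_EE 4 (0.19 in both). A bulk level does not tell fewer cells of a type from less RNA per cell.

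**Figure D1:**
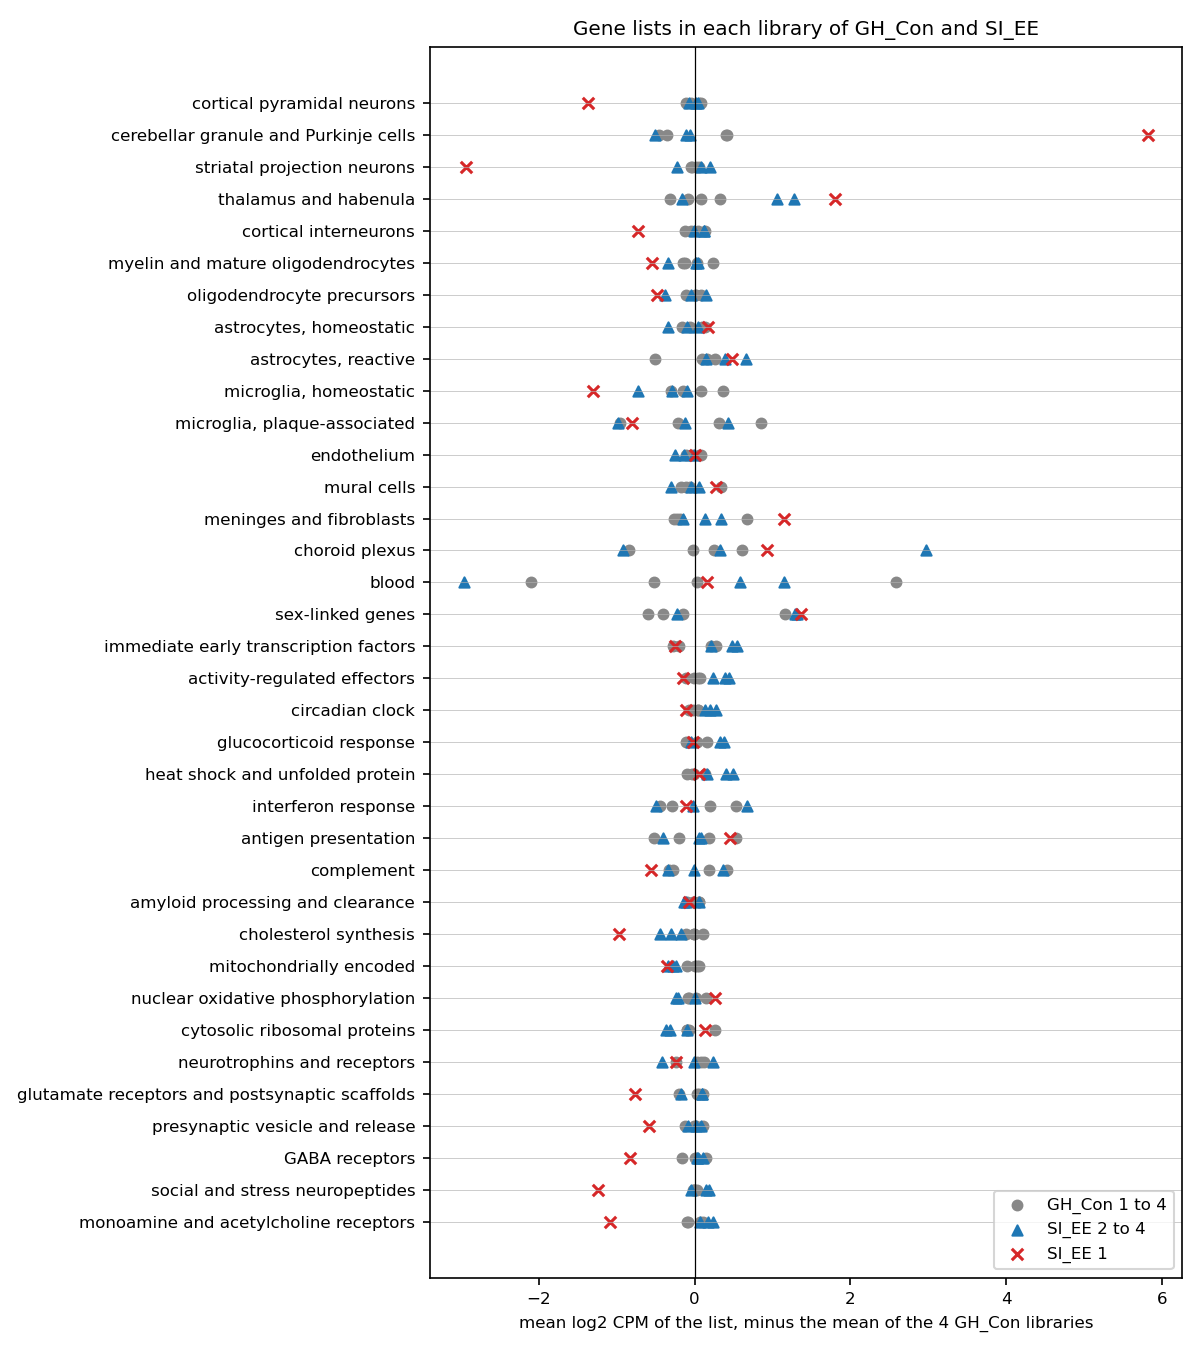
Mean log2 CPM of each gene list in each library, as the difference from the mean of the 4 GH_Con libraries (grey circles, GH_Con 1 to 4; blue triangles, SI_EE 2 to 4; red crosses, SI_EE 1). SI_EE 1 lies far from all others in the cerebellar, striatal and pyramidal lists. The 4 SI_EE libraries lie together, below GH_Con, in the mitochondrially encoded list.

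No gene passed in edgeR's quasi-likelihood test at a Benjamini-Hochberg adjusted p of 0.05. With all libraries 0 of 20354 tested genes (0%) were called, with a smallest adjusted p of 0.262, and DESeq2 called 52. Of these DESeq2 calls 24 were higher, with SI_EE 1 the highest of the 8 in 21, and 28 lower, with SI_EE 1 the lowest in 23. At an unadjusted p under 0.05, edgeR gave 2147 genes, of which 1268 (6.23% of those tested) were higher in SI_EE and 879 (4.32%) lower. SI_EE 1 was the highest of the 8 libraries in 974 of those 1268 and the lowest in 575 of those 879. Without SI_EE 1, 0 of 20718 genes (0%) were called by edgeR, with a smallest adjusted p of 0.610, and DESeq2 called 5. At an unadjusted p under 0.05 there were then 695 higher (3.35%) and 737 lower genes (3.56%), and 875 genes had an unadjusted p under 0.05 in both fits with the same sign. Of all tested genes 49.7% had a positive log2 fold change (SI_EE minus GH_Con) with all libraries and 48.5% without SI_EE 1. The groups did not overlap, with SI_EE higher, in 556 genes (2.73%) and with SI_EE lower in 622 (3.06%), and without SI_EE 1 in 1165 (5.72%) and 1167 (5.73%). Groups that did not overlap, every library of one lying beyond every library of the other, are called apart. These shares are the background for the counts of list members below. The lists were described by counts and medians and not tested.

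Transcripts of the mitochondrial genome were lower in SI_EE than in GH_Con. These 13 messages encode subunits of respiratory chain complexes and ATP synthase and are cut from long shared precursors, so they are not independent of each other. All 13 members had a negative log2 fold change with all libraries (median −0.27, against −0.00 over all tested genes) and without SI_EE 1 (median −0.28, against −0.01). In 11 of 13 every SI_EE library lay below every GH_Con library, where 3.06% of all tested genes did, and without SI_EE 1 in 12, where 5.73% did, with mt-Nd6 the member that still overlapped. An unadjusted p under 0.05 was reached by 10 of them, and by 11 without SI_EE 1. Together they took 8.20%, 8.14%, 7.87% and 7.54% of reads in GH_Con 1 to 4, and 7.31%, 6.63%, 6.54% and 6.70% in SI_EE 1 to 4. Every SI_EE library thus gave a smaller share than every GH_Con library, although SI_EE 1 differed from the rest in tissue markers.

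mt-Cytb, the cytochrome b subunit of complex III (chromosome M, 14145 to 15288, plus strand), was at 10081, 9951, 9697 and 9278 CPM in GH_Con and at 8065, 7818, 7653 and 7962 CPM in SI_EE. The groups did not overlap (9752 ± 353 against 7875 ± 179 CPM, SD, n = 4). Its log2 fold change was −0.31 (SE 0.11) with an edgeR adjusted p of 0.340. The gene mt-Nd4, a core subunit of complex I (chromosome M, 10167 to 11544, plus strand), read 7156, 7025, 6847 and 6536 CPM in GH_Con and 5823, 5642, 5677 and 5666 CPM in SI_EE. Again all SI_EE values lay below all GH_Con values, and SI_EE 1 was the nearest to GH_Con. The log2 fold change of mt-Nd4 was −0.27 (SE 0.11, adjusted p = 0.361). mt-Nd1 stood at −0.28 (SE 0.11) and mt-Nd5 at −0.39 (SE 0.12), both complex I subunits, and in each the groups were apart. The list median was −0.25 with sex as a covariate. Group means of the list were 11.71 ± 0.07 log2 CPM in GH_Con, 11.62 ± 0.16 in SI_Con, 11.45 ± 0.10 in GH_EE and 11.41 ± 0.05 in SI_EE. Both enriched groups had the lower means of these 4, and these contrasts share samples. GH_WT, a group without the EE label, was also low at 11.50 ± 0.09, and SI_WT was at 11.62 ± 0.19. The low level was thus not confined to the enriched groups.

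Nuclear genes of oxidative phosphorylation, which encode the remaining subunits, had 32 positive and 48 negative values of 80 (median −0.02), and none had an unadjusted p under 0.05. Without SI_EE 1, 71 of 80 were negative (median −0.13). The groups were then apart and lower in 6 of 80, near the 5.73% of all tested genes. GH_Con 2 had the highest mean of this list in GH_Con (6.32 log2 CPM). Cytosolic ribosomal protein genes had 77 of 81 negative values (median −0.15), and 78 of 81 without SI_EE 1 (median −0.26). In the latter case 26 of 81 members were apart and lower, where 5.73% of all tested genes were. Rpl3, a large subunit protein (chromosome 15, 80077791 to 80091868, minus strand), was at 372, 392, 322 and 370 CPM in GH_Con and at 324, 293, 274 and 287 CPM in SI_EE. SI_EE 1 exceeded GH_Con 3, and the other SI_EE libraries lay below all of GH_Con (log2 fold change −0.31, SE 0.12, adjusted p = 0.353). Rps2, of the small subunit, was at 179 ± 8.61 CPM in GH_Con and 129 ± 8.24 in SI_EE. Ribosomal protein genes have many processed copies in the genome, and counting could have split their reads. GH_Con 2, the library with lower long genes, had the highest ribosomal list mean of the 8 (7.03 log2 CPM). Without GH_Con 2 the list median was −0.05, and without both GH_Con 2 and SI_EE 1 it was −0.14. The part of transcript length in this difference was not tested.

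Cholesterol synthesis genes were lower too, with every member below 0. The enzymes of this pathway turn acetyl units into sterols, and their transcription is set by SREBP factors that respond to membrane sterol. In the adult brain astrocytes and oligodendrocytes make much of it. All 22 measured members had a negative log2 fold change (median −0.40), 12 with an unadjusted p under 0.05. The groups were apart in 6 of 22, among them Sqle, Fdps, Lss, Insig1 and Mvk, where 3.06% of all tested genes were apart and lower. Without SI_EE 1, which had the lowest list mean, 21 of 22 were negative (median −0.26), 3 reached an unadjusted p under 0.05 and Mvd joined the other 6 that were apart. Among all tested genes 5.73% were then apart and lower.

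Insig1, which holds SREBP precursors in the endoplasmic reticulum (chromosome 5, 28071363 to 28078662, plus strand), read 116, 94.3, 108 and 110 CPM in GH_Con and 60.6, 70.4, 80.2 and 78.1 CPM in SI_EE. The highest SI_EE value was below the lowest of GH_Con, and SI_EE 1 was the lowest of all. Insig1 stood at −0.57 (SE 0.16, adjusted p = 0.262) and at −0.49 without SI_EE 1 (SE 0.17, adjusted p = 0.624). Fdps, which makes farnesyl pyrophosphate, was at 46.7 ± 4.81 CPM in GH_Con and 33.6 ± 4.61 in SI_EE. Mvd, an enzyme of the mevalonate steps, was at 19.2 ± 2.46 CPM in GH_Con, and at 17.1 CPM in SI_EE 1 but 12.3, 11.7 and 11.4 CPM in SI_EE 2 to 4. The list mean was 5.79 ± 0.09 log2 CPM in GH_Con, 5.33 ± 0.26 in SI_Con, 5.56 ± 0.23 in GH_EE and 5.31 ± 0.35 in SI_EE. SI_Con thus had a list mean close to that of SI_EE, while GH_WT and SI_WT were at 5.72 ± 0.09 and 5.60 ± 0.12.

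Heat shock and unfolded protein genes had the opposite sign. This list joins cytosolic chaperones of the heat shock response with chaperones and folding enzymes of the endoplasmic reticulum. Of 28 members 26 had a positive log2 fold change with all libraries (median 0.21) and 26 without SI_EE 1 (median 0.33), the 2 negative ones being Hsp90ab1 and Ddit3 in the first case and Atf4 and Ddit3 in the second. An unadjusted p under 0.05 was reached by 6, and by 11 without SI_EE 1. Hspb1, Hspd1, Manf, Pdia4 and Creld2 were apart and higher in SI_EE, and Hspa1a, Hspa8, Hspa5 and Dnajb5 joined them without SI_EE 1. Among all tested genes 2.73% were apart and higher, and 5.72% without SI_EE 1. With sex as a covariate the list median was 0.11, and 0.22 with SI_EE 1 also left out.

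Manf, a secreted factor of the endoplasmic reticulum stress response (chromosome 9, 106838312 to 106891979, minus strand), was at 31.8, 38.5, 34.5 and 39.6 CPM in GH_Con and at 49.6, 63.2, 56.0 and 40.4 CPM in SI_EE. All SI_EE values exceeded all GH_Con values, SI_EE 4 by a small margin. The log2 fold change was 0.54 (SE 0.15, adjusted p = 0.262) and 0.56 without SI_EE 1 (SE 0.17, adjusted p = 0.610). Pdia4, a disulfide isomerase (chromosome 6, 47796141 to 47813430, minus strand), read 36.0, 41.3, 35.9 and 36.8 CPM in GH_Con and 45.1, 67.1, 57.9 and 44.1 CPM in SI_EE. The groups were apart, with SI_EE 2 the highest (0.51, SE 0.17, adjusted p = 0.295). Hspa5, the main lumenal chaperone BiP (chromosome 2, 34771970 to 34777547, plus strand), was at 181, 215, 198 and 194 CPM in GH_Con and at 129, 355, 325 and 239 CPM in SI_EE. SI_EE 1 was the lowest of all 8 and the other 3 were the highest, so the log2 fold change was 0.41 with it (SE 0.25) and 0.64 without it (SE 0.22, adjusted p = 0.630). Hspa1a, an inducible cytosolic chaperone, was at 12.5 ± 1.98 CPM in GH_Con and 19.7 ± 9.14 in SI_EE, and reads shared with its near-identical neighbour Hspa1b could have been split between them.

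**Figure D2:**
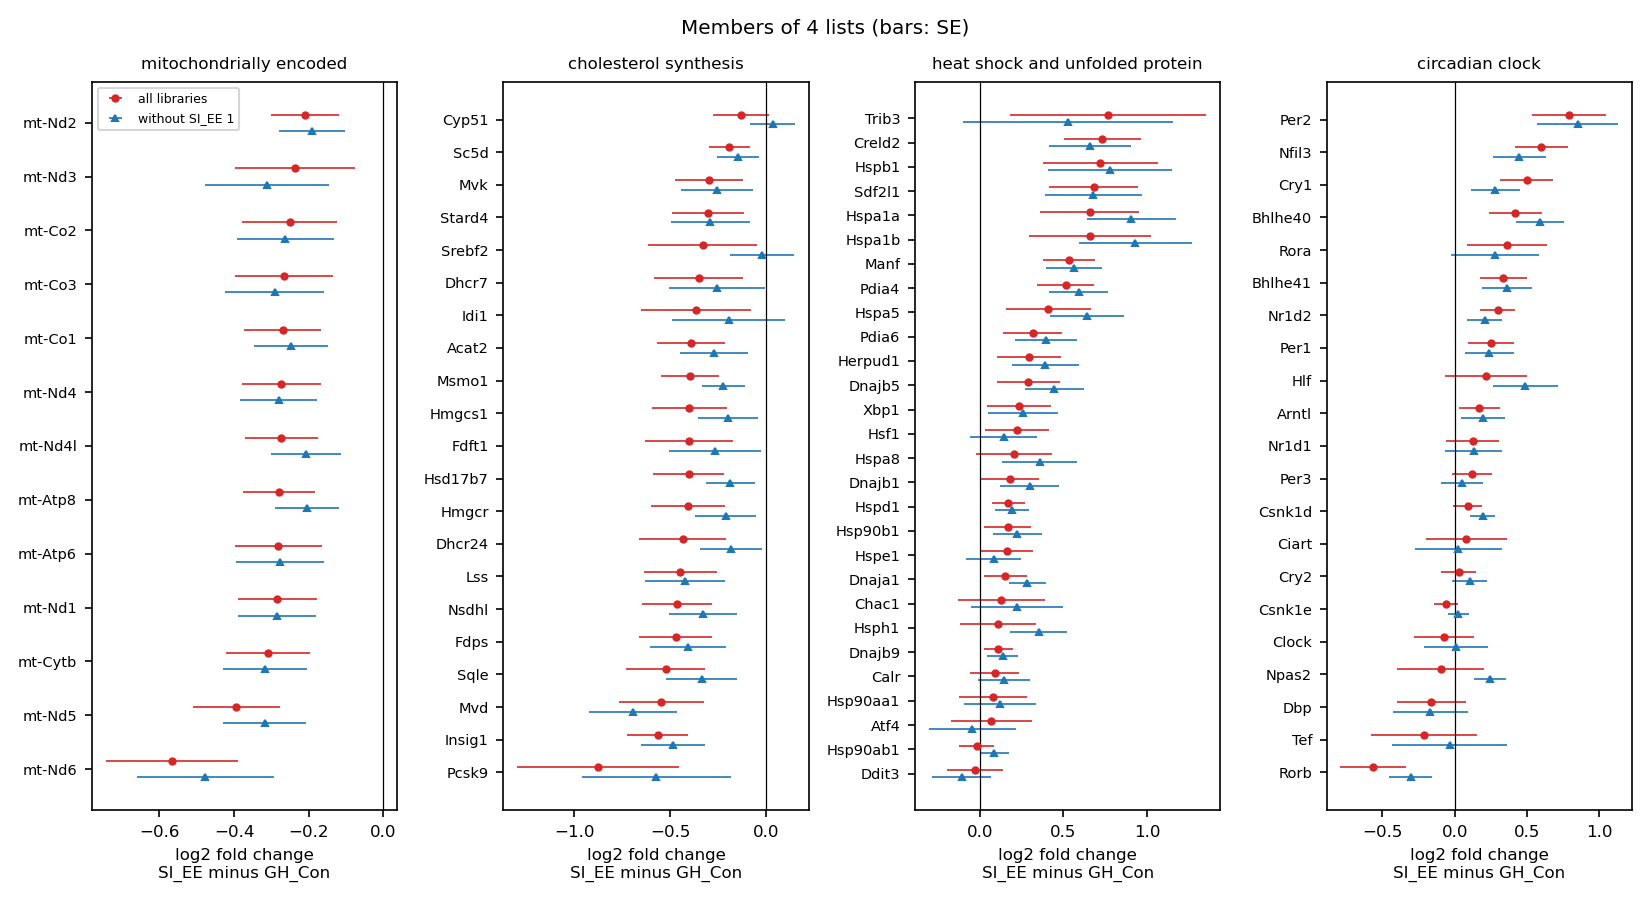
Log2 fold change (SI_EE minus GH_Con) of members of 4 lists, with all libraries (red circles) and without SI_EE 1 (blue triangles), with bars of 1 standard error. All 13 mitochondrially encoded genes lie left of 0 in both fits, as do nearly all cholesterol synthesis genes, and 26 of 28 heat shock and unfolded protein genes lie right of 0.

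Creld2, a protein of the endoplasmic reticulum that helps folding, was at 12.02, 12.7, 6.81 and 11.4 CPM in GH_Con and at 20.6, 18.5, 19.1 and 12.98 CPM in SI_EE. All 4 SI_EE libraries were above GH_Con (0.73, SE 0.23, adjusted p = 0.281). The endoplasmic reticulum stress element, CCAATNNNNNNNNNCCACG on either strand, is the sequence through which the unfolded protein response is known to act, so promoters were searched for it. Of the 23 list members with a RefSeq promoter window (GRCm38.p6, from 250 bases before to 50 after the start), 5 held it: Hspa5, Hsp90b1, Pdia6, Calr and Creld2. Over all 32851 windows 39 did (0.119%). The same was done for the sterol regulatory element core CACCCCAC in cholesterol genes, found in 2 of 14 (Hmgcs1 and Acat2) against 2.87% of all windows. The E-box CACGTG, which clock proteins bind, was in 5 of 18 clock genes (Per1, Cry1, Tef, Bhlhe41 and Ciart) against 7.15%. The cAMP response element TGACGTCA was in 1 of 16 immediate early factors (Maff) and 3 of 19 activity-regulated effectors (Dusp1, Plk2 and Scg2) against 1.79%. These matches are descriptions of the letters in the windows. A list gene counted if any of its windows held the motif, while the shares over all windows count single windows. Counts of genes and shares of windows are therefore unlike units. The 3 sequences below show 1 example for each of the first 3 motifs. They end before the first annotated exon, run 5′ to 3′ on the gene's strand and carry the motif in capitals. They lie at chr15:88819396-88819645 (plus strand), chr13:119690101-119690350 (plus strand) and chr10:85185065-85185304 (minus strand), in Creld2 the match is on the opposite strand, and in Cry1 the E-box partly overlaps a sterol regulatory core on the opposite strand.
Creld2: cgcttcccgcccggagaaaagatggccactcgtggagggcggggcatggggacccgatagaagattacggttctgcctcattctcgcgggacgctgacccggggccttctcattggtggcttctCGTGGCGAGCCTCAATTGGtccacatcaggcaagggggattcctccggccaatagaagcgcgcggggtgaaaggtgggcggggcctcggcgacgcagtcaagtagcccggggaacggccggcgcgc
Hmgcs1: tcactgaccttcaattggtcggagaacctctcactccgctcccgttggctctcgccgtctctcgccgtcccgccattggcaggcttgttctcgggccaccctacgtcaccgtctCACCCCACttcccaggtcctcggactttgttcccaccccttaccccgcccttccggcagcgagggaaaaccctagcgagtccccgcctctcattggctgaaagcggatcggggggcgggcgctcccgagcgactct
Cry1: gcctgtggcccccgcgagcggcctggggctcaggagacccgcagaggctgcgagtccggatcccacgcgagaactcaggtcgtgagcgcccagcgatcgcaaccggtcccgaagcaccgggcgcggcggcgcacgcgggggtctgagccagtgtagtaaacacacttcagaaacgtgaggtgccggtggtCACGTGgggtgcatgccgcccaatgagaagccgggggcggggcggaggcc

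Hmgcs1, the synthase before the rate-limiting step of cholesterol synthesis, was at 330 ± 14.1 CPM in GH_Con and 250 ± 78.5 in SI_EE (−0.40, SE 0.19, adjusted p = 0.475), and without SI_EE 1 at 286 ± 33.0 (SD, n = 3). Cry1, a repressor of the clock, was at 19.4, 23.8, 22.95 and 24.3 CPM in GH_Con and at 45.5, 31.8, 24.6 and 25.8 CPM in SI_EE. The groups were apart, SI_EE 3 by a small margin (0.50, SE 0.18, adjusted p = 0.345), and the value was 0.28 without SI_EE 1.

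The circadian clock runs as a loop in which Clock and Arntl switch on the Per and Cry repressors. Of 21 members 15 had a positive log2 fold change with all libraries (median 0.12) and 18 without SI_EE 1 (median 0.20). An unadjusted p under 0.05 was reached by 6 higher members and 1 lower one, Rorb, which cortical pyramidal neurons also express, and by 7 higher and 0 lower without SI_EE 1. Per2, Cry1, Nr1d2 and Bhlhe41 were apart and higher, and Npas2, Cry2, Hlf, Bhlhe40 and Csnk1d joined them without SI_EE 1. The shares of all tested genes apart and higher were 2.73%, and 5.72% without SI_EE 1. Per2 (chromosome 1, 91415982 to 91459324, minus strand) was at 36.8, 41.2, 38.2 and 43.1 CPM in GH_Con and at 60.4, 85.6, 72.0 and 57.4 CPM in SI_EE. Every SI_EE value exceeded the highest GH_Con value (0.79, SE 0.25, adjusted p = 0.289). Bhlhe40, a repressor induced by activity and by the clock (chromosome 6, 108660629 to 108666925, plus strand), was at 116, 123, 106 and 90.1 CPM in GH_Con and at 91.8, 164, 170 and 157 CPM in SI_EE. SI_EE 1 lay within GH_Con and the other 3 above it, with a log2 fold change of 0.42 (SE 0.18, adjusted p = 0.423) and without SI_EE 1 of 0.59 (SE 0.16, adjusted p = 0.610). Per1, which is also induced by glucocorticoids, was at 63.9 ± 3.60 CPM in GH_Con, 76.2 ± 8.61 in SI_EE, 94.4 ± 28.1 in SI_Con and 92.5 ± 10.7 in GH_EE. Nfil3, a repressor in the clock's output, stood at 0.60 (SE 0.19) and Csnk1d, a kinase of the PER proteins, at 0.09 (SE 0.10). Time of day at dissection is not given in the sources used here, and its part in the clock values was not tested. The list mean was 6.12 ± 0.06 log2 CPM in GH_Con, 6.30 ± 0.18 in SI_Con, 6.36 ± 0.06 in GH_EE and 6.24 ± 0.17 in SI_EE.

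**Figure D3:**
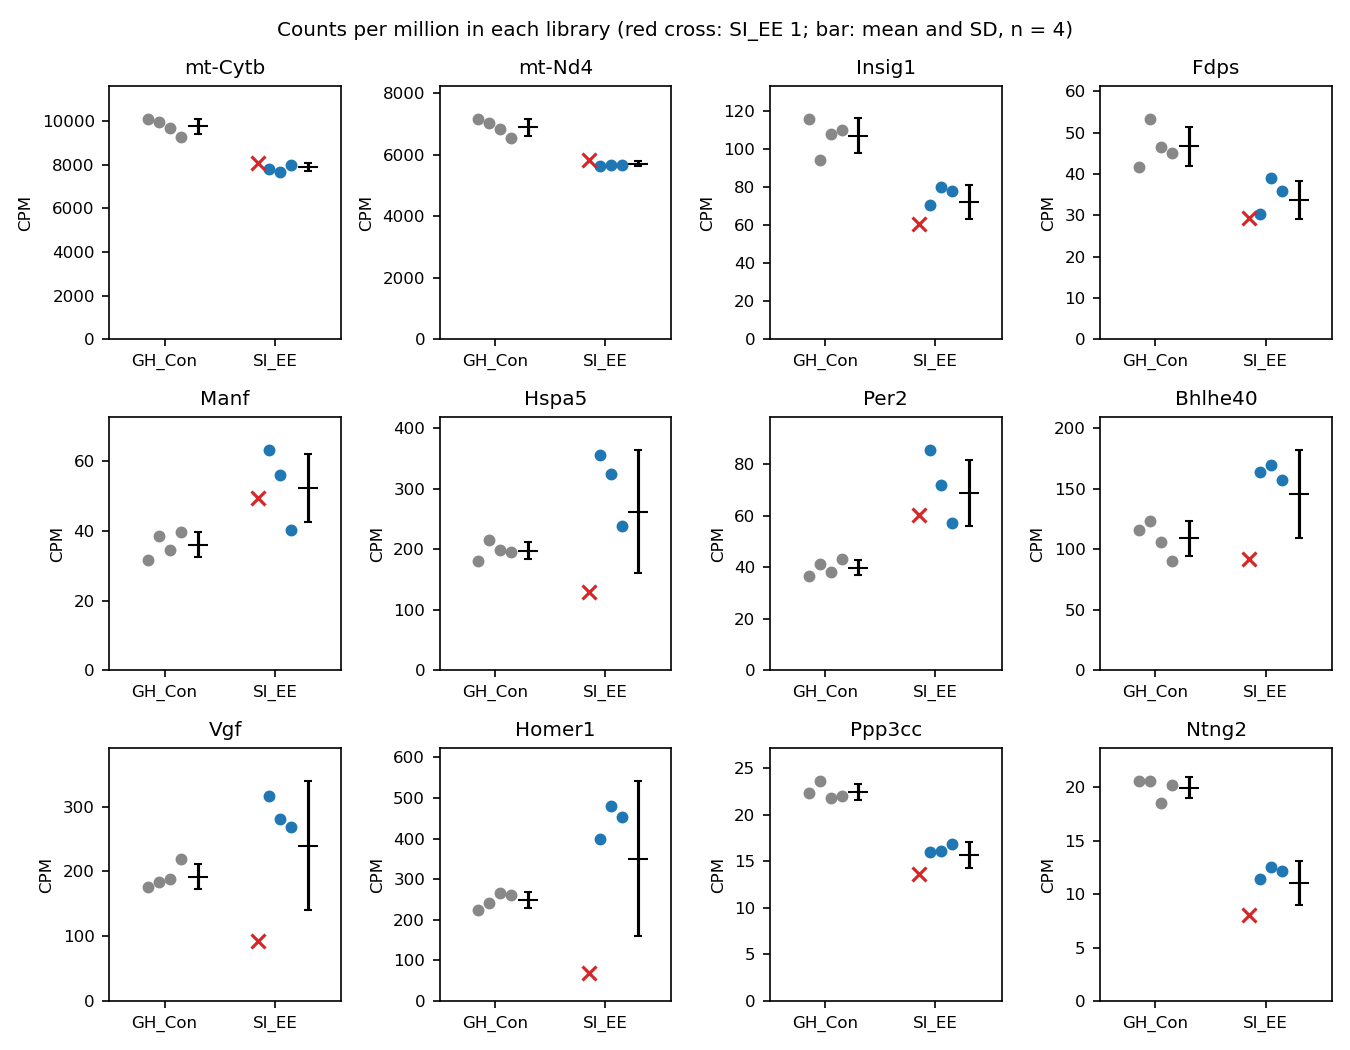
CPM of 12 genes in each GH_Con (grey) and SI_EE library (blue; SI_EE 1 as a red cross), with the mean and SD of the 4 libraries beside the points and each axis starting at 0. The groups do not overlap for mt-Cytb, mt-Nd4, Insig1, Fdps, Manf, Per2, Ppp3cc and Ntng2. SI_EE 1 lies below or among the GH_Con values for Hspa5, Bhlhe40, Vgf and Homer1, where SI_EE 2 to 4 lie above them.

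Genes that neurons induce with activity depended on SI_EE 1. Of 20 immediate early transcription factors 16 had a positive log2 fold change (median 0.30), 3 had an unadjusted p under 0.05 and 0 were apart. Without SI_EE 1, 14 were positive (median 0.42), 8 had an unadjusted p under 0.05, and 7 were apart and higher: Fosb, Fosl2, Egr1, Egr2, Egr3, Nr4a3 and Klf10. Among all tested genes 5.72% were then apart and higher. Egr1, a zinc finger factor induced within minutes (chromosome 18, 34859823 to 34864984, plus strand), was at 207, 313, 225 and 300 CPM in GH_Con and at 129, 520, 442 and 376 CPM in SI_EE. SI_EE 1 was the lowest of the 8 and the other 3 the highest. Its log2 fold change was 0.49 (SE 0.28, adjusted p = 0.571), and 0.78 without SI_EE 1 (SE 0.20, adjusted p = 0.610). Egr3, of the same family, went from 0.45 (SE 0.39) to 0.80 (SE 0.26) and Fosb, an AP-1 subunit, from 0.55 (SE 0.34) to 0.83 (SE 0.29). Egr2 stood at 0.97 (SE 0.39) and 1.19 (SE 0.40). Fos was at 7.48, 25.3, 12.6 and 21.0 CPM in GH_Con and at 29.5, 32.1, 31.9 and 22.7 CPM in SI_EE. GH_Con 2 overlapped SI_EE 4, and GH_Con 1 was the lowest (0.81, SE 0.33, adjusted p = 0.385).

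Effector genes of neuronal activity, which include secreted factors and synaptic scaffold proteins, had 21 of 26 positive values (median 0.26) and 22 of 26 without SI_EE 1 (median 0.29). Pim1, a kinase, was the 1 member of 26 apart with all libraries, where 2.73% of all tested genes were apart and higher. Without SI_EE 1 Homer1, Bdnf, Dusp4, Ptgs2, Inhba and Vgf were apart as well, where 5.72% of all tested genes were. Vgf, a precursor of secreted neuropeptides (chromosome 5, 137026392 to 137033351, plus strand), was at 177, 184, 189 and 220 CPM in GH_Con and at 93.1, 316, 282 and 268 CPM in SI_EE. SI_EE 1 was less than any GH_Con library and the other 3 more than all of them. The log2 fold change was 0.32 (SE 0.24, adjusted p = 0.682) with it and 0.59 (SE 0.15, adjusted p = 0.610) without it. Homer1, whose short form remodels postsynaptic scaffolds (chromosome 13, 93299635 to 93405129, plus strand), was at 225, 242, 267 and 261 CPM in GH_Con and at 68.7, 400, 480 and 453 CPM in SI_EE. The pattern was that of Vgf (0.50, SE 0.39, and 0.84, SE 0.26, without SI_EE 1). Bdnf, the neurotrophin, was at 28.0, 28.1, 22.1 and 25.9 CPM in GH_Con and at 22.6, 39.7, 39.0 and 35.9 CPM in SI_EE. Its log2 fold change was 0.40 (SE 0.19, adjusted p = 0.476), and 0.56 without SI_EE 1 (SE 0.18, adjusted p = 0.610). Inhba, a subunit of activin, was at 4.34 CPM in SI_EE 1, at 34.6 to 37.3 in SI_EE 2 to 4 and at 21.3 to 25.2 in GH_Con. Dusp4, a phosphatase of MAP kinases, was at 6.73 ± 1.01 CPM in GH_Con and 13.2 ± 4.29 in SI_EE (0.97, SE 0.35, adjusted p = 0.331). Pyramidal markers in SI_EE 1 were low as well (list mean 5.18 log2 CPM against 6.44 to 6.63 in the other 7), and their part in the low values of SI_EE 1 was not tested.

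The immediate early list mean was 4.38 ± 0.28 log2 CPM in GH_Con, 4.63 ± 0.31 in SI_Con, 4.83 ± 0.11 in GH_EE and 4.62 ± 0.36 in SI_EE, with SI_EE 1 at 4.12. For the effectors it was 4.75 ± 0.08 in GH_Con, 4.99 ± 0.21 in SI_Con, 5.10 ± 0.12 in GH_EE and 4.99 ± 0.27 in SI_EE. GH_Con had the lowest mean of these 4 groups in both lists, and these contrasts share samples. GH_WT and SI_WT were at 4.86 ± 0.21 and 4.76 ± 0.25 in the immediate early list. Among the effectors they were at 5.07 ± 0.18 and 5.15 ± 0.16, so higher means than in GH_Con were not confined to the enriched groups. Egr2 was at 4.06 ± 2.05 CPM in GH_Con, 4.73 ± 1.96 in SI_Con, 12.1 ± 2.52 in GH_EE and 7.97 ± 2.87 in SI_EE. The means of the enriched groups were the higher ones of these 4. Slc5a3, the myo-inositol transporter, was at 29.0 ± 2.94 CPM in GH_Con, 37.2 ± 10.3 in SI_Con, 52.2 ± 11.5 in GH_EE and 52.9 ± 12.7 in SI_EE.

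**Figure D4:**
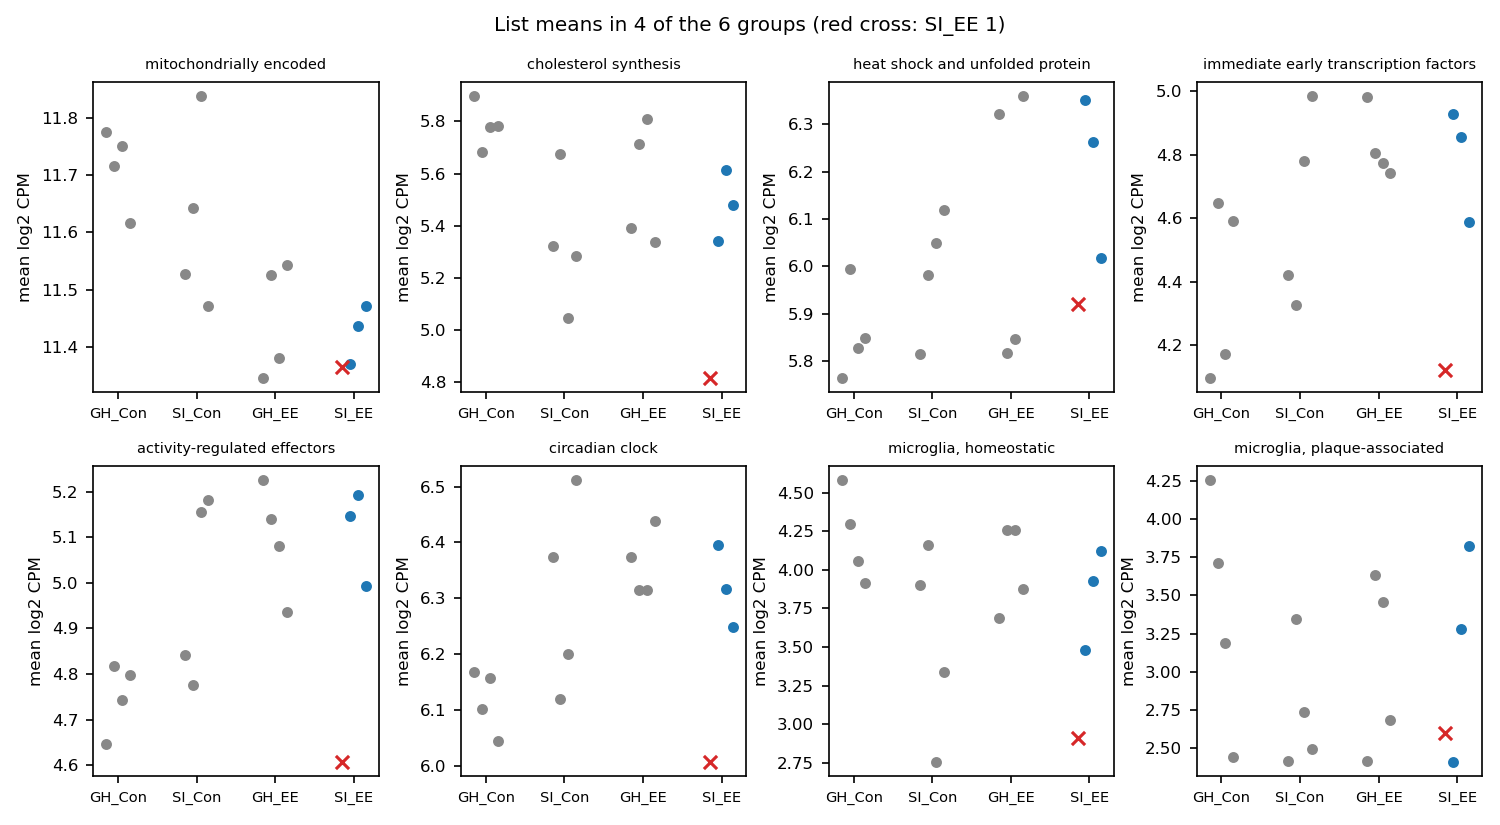
Mean log2 CPM of 8 lists in each library of GH_Con, SI_Con, GH_EE (grey) and SI_EE (blue; SI_EE 1 as a red cross). SI_EE and GH_EE lie below GH_Con in the mitochondrially encoded list. SI_EE 1 is the lowest of all plotted libraries in cholesterol synthesis, activity-regulated effectors and the circadian clock.

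Among the genes named by p, the smallest p was that of Ppp3cc, a catalytic subunit of the calcium-dependent phosphatase calcineurin (chromosome 14, 70217865 to 70289471, minus strand). It was at 22.4, 23.6, 21.8 and 21.99 CPM in GH_Con and at 13.7, 16.0, 16.1 and 16.9 CPM in SI_EE. The groups were far apart for their spread (22.4 ± 0.812 against 15.7 ± 1.38 CPM), with a log2 fold change of −0.52 (SE 0.10, edgeR adjusted p = 0.262). Without SI_EE 1 Ppp3cc stood at −0.46 (SE 0.10, edgeR adjusted p = 0.610). DESeq2 called it with all libraries (adjusted p = 0.000729) and without SI_EE 1 (adjusted p = 0.0207). SI_Con and GH_EE lay between, at 19.2 ± 1.31 and 18.5 ± 1.43 CPM.

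Ntng2, a membrane-anchored netrin that takes part in synaptic adhesion (chromosome 2, 29194541 to 29253005, minus strand), followed. It was at 20.5, 20.6, 18.5 and 20.2 CPM in GH_Con and at 8.07, 11.4, 12.5 and 12.2 CPM in SI_EE. SI_EE 1 was the lowest, and the other 3 were also below all GH_Con values. The log2 fold change was −0.86 (SE 0.16, edgeR adjusted p = 0.262), and −0.73 without SI_EE 1 (SE 0.16, edgeR adjusted p = 0.610). DESeq2 called Ntng2 in both cases (adjusted p = 0.00290 and 0.0410). Ntng2 was at 16.5 ± 0.884 CPM in SI_Con and 13.8 ± 1.80 in GH_EE.

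Other genes with small p and lower values were Usp43, a deubiquitinase (−1.22, SE 0.27), Pigz, a mannosyltransferase of GPI anchors (−0.74, SE 0.17), Lypd6b, a Ly6 family protein (−0.75, SE 0.18), Dtnb, a dystrobrevin (−0.36, SE 0.08), and Cdc42se2, a Cdc42 effector (−0.42, SE 0.10). In each of these 5 the groups were apart, and each was also negative without SI_EE 1 (−0.96, −0.70, −0.57, −0.30 and −0.30). As they were chosen by small p in this same comparison, groups apart and a kept sign are no further support. The same holds for Ppp3cc, Ntng2 and Bcl6. Nr2f1, a nuclear receptor of cortical area patterning, was at 72.8 ± 3.66 CPM in GH_Con and 51.2 ± 11.7 in SI_EE. In the fit without SI_EE 1 the smallest p among lower genes also took in Rasgef1c, an exchange factor for Ras proteins (27.1 ± 1.71 CPM in GH_Con and 18.7 ± 2.73 in SI_EE 2 to 4), Mastl, a mitotic kinase, and Slc22a21, a carnitine transporter. Mastl was at −0.98 with all libraries and −1.10 without SI_EE 1, and Slc22a21 at −0.83 and −1.24, with SI_EE 1 (2.42 CPM) inside the range of GH_Con.

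Bcl6, a transcriptional repressor (chromosome 16, 23965052 to 23988852, minus strand), had the smallest p of the higher genes named with all libraries, while Slc5a3, Osbpl3 and Vgf had smaller p than Bcl6 without SI_EE 1. It was at 21.6, 24.8, 21.0 and 23.3 CPM in GH_Con and at 76.1, 31.5, 36.8 and 32.8 CPM in SI_EE. All SI_EE values were above GH_Con and SI_EE 1 was more than the others by a wide gap. The log2 fold change was 0.96 (SE 0.21, edgeR adjusted p = 0.262) and 0.57 without SI_EE 1 (SE 0.14, edgeR adjusted p = 0.610). DESeq2 called Bcl6 with all libraries (adjusted p = 0.0223) and not without SI_EE 1. The mean was 36.8 ± 8.06 CPM in SI_Con and 32.5 ± 2.61 in GH_EE. Map3k4, a MAP kinase kinase kinase, was at 41.7 ± 1.11 CPM in GH_Con and 53.7 ± 4.03 in SI_EE (0.37, and 0.31 without SI_EE 1), and Tyw1, an enzyme of tRNA modification, at 11.97 ± 0.609 and 16.3 ± 2.25 (0.45 and 0.35). Rnf182, a ubiquitin ligase, was at 7.76 to 8.94 CPM in GH_Con, at 45.2 in SI_EE 1 and at 10.8 to 12.5 in SI_EE 2 to 4, so its value went from 1.32 to 0.55. Cdc14b, a phosphatase, was at 3.81 ± 0.877 CPM in GH_Con and 9.46 ± 2.88 in SI_EE (1.31, and 1.33 without SI_EE 1), with 4.19 ± 0.973 in SI_Con. Osbpl3, an oxysterol-binding protein, and Pdp1, a phosphatase that activates pyruvate dehydrogenase, were lowest of the 8 in SI_EE 1 (26.3 and 83.7 CPM) and stood at 0.66 and 0.49 without it. With all libraries DESeq2 also called Usp43, Dtnb, Pigz, Lypd6b, Tyw1, Map3k4, Rnf182, Cdc14b, Ret and Calb2 (adjusted p from 0.0223 for Usp43, Tyw1 and Calb2 to 0.0466 for Ret), and without SI_EE 1 it called none of these. For Ptpn22, Mab21l1, Il20rb and Arhgef33 the difference lay in SI_EE 1 alone, which read 75.9, 53.6, 55.3 and 88.1 CPM. None of the other 7 libraries exceeded 1.14 CPM in any of these 4, and without SI_EE 1 their log2 fold changes went from 5.10, 5.46, 5.62 and 5.21 to 0.75, 0.56, 0.69 and 0.35.

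**Figure D5:**
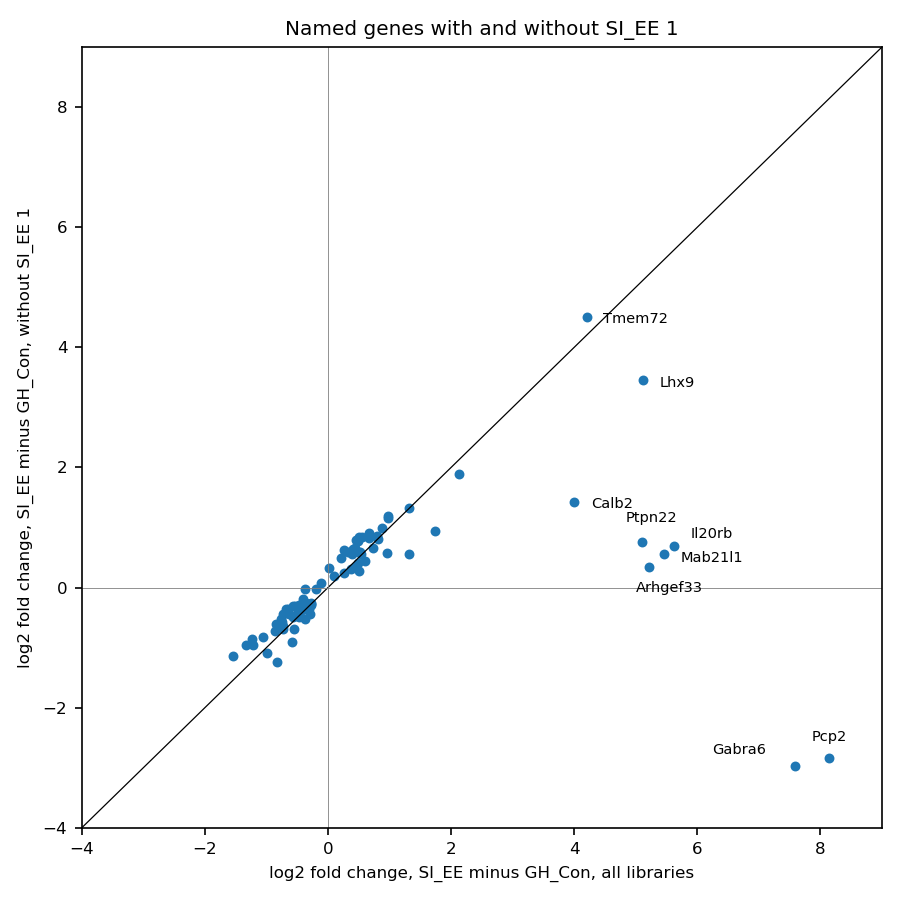
Log2 fold change (SI_EE minus GH_Con) of the genes named here with all libraries (horizontal axis) and without SI_EE 1 (vertical axis); the diagonal marks equal values. Most lie along the diagonal, while Ptpn22, Il20rb, Mab21l1, Arhgef33 and Calb2 lie far below it and Gabra6 and Pcp2 change sign.

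Microglial genes were lower in SI_EE on average, with wide overlap. Of 14 homeostatic members, which mark surveying microglia, 13 had a negative log2 fold change (median −0.54) and 6 an unadjusted p under 0.05. Without SI_EE 1 all 14 were negative (median −0.31), 0 with an unadjusted p under 0.05, and the median was −0.31 with sex as a covariate and −0.16 with both changes. P2ry12, a purinergic receptor (chromosome 3, 59216272 to 59262871, minus strand), was at 37.4, 31.1, 30.1 and 15.7 CPM in GH_Con and at 13.5, 14.1, 23.4 and 17.7 CPM in SI_EE. GH_Con 4, read as male, lay within the range of SI_EE and GH_Con 1 to 3, read as female, above it, while within SI_EE the female SI_EE 4 lay below the male SI_EE 3. The log2 fold change was −0.74 (SE 0.29, adjusted p = 0.377), and −0.63 without SI_EE 1. Aif1, which encodes the protein Iba1, was the 1 member of 14 apart (6.01 ± 2.48 against 2.90 ± 1.18 CPM), where 3.06% of all tested genes were apart and lower. Tmem119 stood at −0.42 (SE 0.17) and P2ry13 at −0.64 (SE 0.26), and without SI_EE 1 at −0.29 and −0.44.

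Plaque-associated microglial genes had 19 of 26 negative values (median −0.43) and 21 of 26 without SI_EE 1 (median −0.35), with 0 apart in either case. The median was −0.11 with sex as a covariate and −0.06 with SI_EE 1 also left out, and −0.13 without GH_Con 1. Cst7, a cystatin of plaque-associated microglia (chromosome 2, 150570415 to 150578944, plus strand), was at 13.95, 3.70, 2.80 and 0.904 CPM in GH_Con and at 0.252, 0.245, 2.88 and 5.68 CPM in SI_EE. The female libraries GH_Con 1 and SI_EE 4 were the highest of their groups (−1.24, SE 1.06, adjusted p = 0.737). Trem2, a lipid-sensing receptor (chromosome 17, 48346401 to 48354147, plus strand), was at 27.2, 20.7, 12.1 and 9.79 CPM in GH_Con and at 4.46, 7.05, 11.8 and 15.4 CPM in SI_EE, again overlapping (−0.85, SE 0.44). Lpl, a lipase, stood at −0.73 (SE 0.29) and −0.45 without SI_EE 1, and Axl, a receptor for dying cells, at −0.27 (SE 0.12). Gfap, the astrocyte filament (chromosome 11, 102887336 to 102900912, minus strand), was at 477, 343, 177 and 170 CPM in GH_Con and at 145, 88.5, 224 and 371 CPM in SI_EE. The female SI_EE 4 was within the range of GH_Con 1 and 2, and the groups overlapped (−0.49, SE 0.45, adjusted p = 0.757).

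The human APP entry was at 3736, 3547, 3019 and 1500 CPM in GH_Con and at 337, 1814, 3218 and 3702 CPM in SI_EE. The ranges overlapped, and the exact two-sided permutation p was 0.514 (0.914 without SI_EE 1, smallest possible 0.0286). The libraries read as female, GH_Con 1 to 3 and SI_EE 4, were at 3019 to 3736 CPM. Those read as male were at 337 to 3218 CPM, with SI_EE 3 within the female range. The permutation did not account for sex, which was unequal between the groups. Which sequence was counted for this entry is not given in the sources used here. Mouse App was at 1337 to 1508 CPM in GH_Con, at 763 in SI_EE 1 and at 1406 to 1486 in SI_EE 2 to 4, and Thy1, whose promoter drives the transgene, at 1958 ± 622 CPM in GH_Con and 1349 ± 510 in SI_EE. Of 22 amyloid processing and clearance genes 11 were positive and 11 negative (median −0.01).

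Oligodendrocyte genes were mostly lower with all libraries: 22 of 24 myelin members were negative (median −0.14) and 16 of 24 without SI_EE 1 (median −0.09). Mag, an adhesion protein of the inner myelin sheath (chromosome 7, 30899176 to 30914873, minus strand), was at 187, 206, 170 and 208 CPM in GH_Con and at 130, 116, 162 and 167 CPM in SI_EE. It was the 1 myelin member of 24 whose groups were apart (−0.42, SE 0.15, adjusted p = 0.331), where 3.06% of all tested genes were apart and lower. Its level in SI_Con was lower still, at 118 ± 14.8 CPM. Mbp, a main myelin protein, was at 689 ± 120 CPM in GH_Con and 538 ± 90.5 in SI_EE, with overlap. Precursor genes had 12 of 15 negative values (median −0.09), and 8 of 15 without SI_EE 1 (median −0.05). Cspg4, the NG2 proteoglycan, was the 1 of 15 apart (20.1 ± 0.638 against 15.3 ± 3.65 CPM), again beside 3.06% of all tested genes. It stood at −0.39 and without SI_EE 1 at −0.25. Olig1, a lineage factor, stood at −0.41 (SE 0.15) and at −0.28 without SI_EE 1. Homeostatic astrocyte genes had 9 of 16 negative values (median −0.09), and 12 of 16 without SI_EE 1 (median −0.15). Gpc5, a glypican, stood at −0.46 and at −0.29 without SI_EE 1, and Gjb6, a gap junction protein, at 0.49 and 0.41. Reactive astrocyte genes had 11 of 18 positive values (median 0.25, and 0.14 without SI_EE 1). Steap4, Timp1 and Hspb1 of the 18 were apart and higher, where 2.73% of all tested genes were. Steap4 was at under 1 CPM in every library of the 8.

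Neuronal lists followed SI_EE 1. Pyramidal markers had 15 of 20 negative values (median −0.21) with all libraries and 10 of 20 without SI_EE 1 (median −0.01). Emx1, a cortical homeobox gene, was at 22.5 ± 2.35 CPM in GH_Con and 14.04 ± 7.58 in SI_EE, with SI_EE 1 at 3.38 CPM. Slc17a7, a vesicular glutamate transporter, was at 1053 ± 320 CPM in GH_Con and 920 ± 354 in SI_EE. It was at 584 CPM in SI_EE 1, near the 647 CPM of SI_EE 4, and at up to 1334 CPM in the rest of both groups. Presynaptic genes had 17 of 25 negative values and 11 of 25 without SI_EE 1, and glutamate receptor and scaffold genes 24 of 30 and 15 of 30. Stx1a, a SNARE protein of vesicle release (chromosome 5, 135023482 to 135051100, plus strand), was at 249, 282, 275 and 244 CPM in GH_Con and at 53.6, 213, 200 and 201 CPM in SI_EE. The groups were apart, which leaving out SI_EE 1 could not change. The log2 fold change of Stx1a was −0.65 (SE 0.27) with all libraries and −0.36 without SI_EE 1 (SE 0.15, edgeR adjusted p = 0.711). Among neuropeptide genes Oprk1, the kappa opioid receptor, was at 13.1, 11.99, 11.7 and 9.90 CPM in GH_Con and at 0.529, 6.95, 5.56 and 5.52 CPM in SI_EE. All SI_EE values were below GH_Con (−1.33, SE 0.66, adjusted p = 0.495, and −0.95 without SI_EE 1), and Oprk1 was at 3.90 ± 1.87 CPM in SI_Con and 8.91 ± 1.84 in GH_EE, both means below every GH_Con library. Npy2r, a receptor for neuropeptide Y, stood at 0.66 (SE 0.27), and Ret, a receptor for GDNF family ligands, at 1.74 with all libraries and 0.94 without SI_EE 1.

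Vascular and neighbouring-tissue lists were mixed. Endothelial genes had 10 of 16 negative values in both fits (median −0.16, and −0.19 without SI_EE 1), with Slco1a4, a transporter of the blood-brain barrier, at −0.30 (SE 0.15) and −0.44 without SI_EE 1, and Itm2a at −0.37 and −0.52. Choroid plexus genes had 14 of 16 positive values (median 1.33), and 15 of 16 without SI_EE 1 (median 1.43). This rested on SI_EE 3, without which the median was 0.061, and it was 0.33 with sex as a covariate. The list mean was 2.83 log2 CPM in SI_EE 3 and 0.80, −1.05 and 0.20 in SI_EE 1, 2 and 4. Tmem72, one of them, was at 5.98 CPM in SI_EE 3 and at most 0.504 in the other 7 libraries. Thalamus and habenula genes had 11 of 12 positive values (median 1.13, and 0.49 without SI_EE 1). Calb2, calretinin, was at 369 CPM in SI_EE 1, 7.05, 13.6 and 32.6 in SI_EE 2 to 4 and 5.52 to 7.50 in GH_Con, and Lhx9, a thalamic homeobox gene, at 20.8, 0, 1.59 and 4.86 CPM in SI_EE and at most 0.372 in GH_Con. Interferon response genes had 16 of 29 positive values (median 0.03), and 20 of 29 without SI_EE 1 (median 0.07). Glucocorticoid response genes had 15 of 21 in both fits (median 0.23, 0.16 without SI_EE 1, and 0.09 with sex as a covariate).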

How the data were processed

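Total RNA of medial prefrontal cortex was extracted with Trizol, passed over RNeasy columns with DNase and sequenced on an Illumina platform, per the labels' protocols. The authors deposited 1 table of raw read counts per gene for 24 libraries. The submitters' processing notes name the build mm10. For the aligner, counter, annotation and strand setting, nothing is given in the sources used here. Of 56750 entries 52073 (91.8%) matched a symbol.

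Genes were tested with edgeR 4.0.16 under R 4.3.3, by its quasi-likelihood method (TMM, filterByExpr, robust dispersion, 6 groups of 4, no covariate), with Benjamini-Hochberg adjustment over all tested genes. The same fit was also run on simulated counts drawn with the means and spread of the real ones. They held no library set apart as SI_EE 1 was, so they cannot show how that library affects the fit. The fit was repeated without SI_EE 1. From the deposited counts, CPM was computed with TMM-scaled totals and log2 CPM with a prior count of 2. Errors are SD (n = 4) unless SE is written. "Apart" means that every library of one group lay beyond every library of the other. Sex was read from Xist and Y-linked counts. Alternatives used DESeq2 1.42.0, limma 3.58.1, other factors and filters, a sex covariate and single libraries left out. Positions are from GENCODE M21 (GRCm38, the assembly of mm10).

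The compared groups and all 36 lists were chosen with earlier results of these data known. Genes named were the 8 with the smallest p per direction and fit (mean CPM at least 1 over the 8 libraries, no Gm, Rik or -ps symbol), up to 4 per list by p without SI_EE 1, and a set of controls. Creld2, Cry1 and Hmgcs1 were chosen for their promoters, and other list members are named where they make up a small count. Some genes of these lists are not reported here. Intervals for depth were not computed; a spread over 4 libraries covers counting error.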

Additional observations from a re-analysis of the deposited data

Results flagged for a closer look

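In groups of 4, 180 group and gene combinations were examined for a highest or lowest library set far from the other 3, and 28 were found. Chance gives such a library in about 1 in 20 groups, but the genes were partly chosen by p in a fit that holds SI_EE 1, or as cerebellar and sex-linked controls, so the number cannot be read against chance. SI_EE 1 accounted for 20 of the 28.

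SI_EE 1 was far above SI_EE 2 to 4 for Bcl6 (76.1 CPM), Tyw1 (19.6 CPM), Map3k4 (59.7 CPM), Rnf182 (45.2 CPM), Ptpn22 (75.9 CPM), Mab21l1 (53.6 CPM), Il20rb (55.3 CPM), Arhgef33 (88.1 CPM), Ret (20.6 CPM), Mvd (17.1 CPM), Rpl41 (209.7 CPM), Calb2 (369 CPM), Gabra6 (342 CPM) and Pcp2 (242 CPM). It was far below them for Cdc42se2 (75.4 CPM), Inhba (4.34 CPM), Bhlhe40 (91.8 CPM), Lpl (6.23 CPM), Stx1a (53.6 CPM) and App (763 CPM).

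Among the other libraries, Tmem72 was far higher in SI_EE 3 (5.98 CPM), Per1 lower in SI_EE 4 (63.4 CPM), Ntng2 lower in GH_Con 3 (18.5 CPM), Aif1 higher in GH_Con 2 (9.70 CPM) and Rnf182 higher in GH_Con 4 (8.94 CPM). Xist was far lower in GH_Con 4 (0.31 CPM) and far higher in SI_EE 4 (791 CPM) than in the rest of their groups, and Ddx3y far higher in GH_Con 4 (49.4 CPM).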

How the results depend on the processing

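No gene was called by edgeR with all libraries. Leaving out 1 library at a time gave 0 to 1 called genes, 0 to 1 of them lower. The 1 gene was Lrrc8d without SI_EE 3 (adjusted p = 0.000709) and Tgfbr1 without SI_EE 4 (adjusted p = 0.00181). DESeq2 called 52 genes, 24 higher and 28 lower, and without SI_EE 1 it called 5, of which 1 was higher and 4 lower. These were Ppp3cc, Ntng2 and the Gm entries Gm2436, Gm10593 and Gm44503, with extreme log2 fold changes of −21.3, 19.6 and −23.3 for the Gm entries. The cause of the difference between the tools was not tested. At an unadjusted p under 0.05 edgeR gave 2147 genes.

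Of 1707 values of the 90 genes over 19 alternatives, 26 changed sign, in 9 genes. Over fits that left out 1 library at a time, Gabra6 ranged from −2.98 to 8.30, Pcp2 from −2.84 to 8.92 and App from −0.19 to 0.0717, each turning without SI_EE 1. Neurod6 ranged from −0.13 to 0.32, and was −0.0253 without GH_Con 1 and −0.11, −0.13 and −0.0348 without SI_EE 2, 3 and 4 in turn. With DESeq2 and without SI_EE 1, Gabra6 stood at −3.06, Pcp2 at −2.98 and App at 0.0767. Without SI_EE 1 and GH_Con 2 (chosen after seeing the data, as was DESeq2 without SI_EE 1), Gabra6 stood at −3.38, Pcp2 at −2.95, App at 0.0605, the human APP entry at 0.0920 and Slc17a7 at 0.11. With a sex covariate and without SI_EE 1, Gabra6 stood at −1.97, Pcp2 at −3.47, App at 0.0831, the human APP entry at 0.22, Slc17a7 at 0.0605, Cst7 at 0.0259 and Xist at 0.0047, and with the sex covariate alone Xist stood at 0.0061. With limma-voom Neurod6 stood at −0.18 and Inhba at −0.15. The cause was not tested.

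Deviations of same-numbered GH_Con and SI_EE samples from their group means correlated at −0.0380 to 0.0199. SI_EE 1 weighs on the SI_EE mean and so on every SI_EE deviation. The correlations therefore cannot decide whether the numbers pair samples. With the replicate number as a block, 0 genes were called and Neurod6 stood at −0.0073. With 4 libraries per group, 1 of them unlike the rest, differences smaller than the spread between libraries could not be detected, and sex was unequal between the groups.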
